A study of Mus musculus with 16 samples.

Results

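The insulin signalling route was followed through 9 genes: the insulin receptor Insr, its docking proteins Irs1 and Irs2, the phosphatidylinositol 3-kinase regulatory subunit Pik3r1, the kinase Akt2, the transcription factor Foxo1, the vesicle regulator Tbc1d4, the glucose transporter Slc2a4 (GLUT4) and the receptor inhibitor Grb14. They were taken by name from the deposited tables, where all 9 were found among 54532 genes, and each was described over 16 bulk RNA sequencing libraries.

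The libraries came from gonadal white fat of female C57BL/6 mice, an inbred laboratory strain. Control mice were left with the dam until weaning on postnatal day 21. Mice of the early life stress group, coded MS, were taken from the dam each day between postnatal days 2 and 16 and weaned on day 17. Preadipocytes of mice on a high-fat diet gave 4 control and 4 stress libraries, and mature adipocytes 3 and 3. On a low-fat diet there was 1 control and 1 stress preadipocyte library and no mature adipocyte library. No age or diet length is given in the sources used here, nor the antibodies of the sort. After collagenase digestion, centrifugation and filtration split the floating mature fat cells from the stromal vascular cells, and magnetic sorting enriched the adipocyte lineage. Nothing in the labels ties a library to its own animal, so every p-value speaks of the spread among these samples alone, part of which may be technical.

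Library totals ran from 14182130 to 23368821 counts. Control high-fat preadipocyte libraries 1 and 3 differed at 6.93% of genes, against 43.9% to 78.6% in the other 17 pairs within a group. They were therefore counted as 1 sample, which leaves 7 preadipocyte and 6 mature adipocyte samples on the high-fat diet. Summed over 15 mature adipocyte markers, Adipoq, Plin1 and Lep among them, the level was 9054 to 34215 FPKM (fragments scaled by the authors for gene length and sequencing depth) in the mature fraction and 71.6 to 312 FPKM in the high-fat preadipocytes, and 15 of 15 were called higher in the mature fraction. All 14 progenitor markers, such as Pdgfra and Dcn, were called lower there. Control adipocyte libraries 1 and 3 sampled rare genes less well than the rest. They had 1.15 and 0.637 genes with 1 to 5 counts for each gene with 6 to 15, against 1.55 to 2.23 in the other libraries.

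Insulin binding switches on the kinase of its receptor, which phosphorylates the docking proteins of the IRS family. These recruit phosphatidylinositol 3-kinase, whose lipid product activates AKT. In fat cells AKT2 phosphorylates the RAB GTPase-activating protein TBC1D4, so that vesicles carrying GLUT4 reach the cell surface and take up glucose, and it keeps FOXO1 out of the nucleus. GRB14 binds the activated receptor and damps it.

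The start regions of Irs1 and Irs2 are shown because the docking proteins were the 2 members that fell in the mature fraction, and because their windows were searched for short sequences known from insulin-regulated promoters. RefSeq start regions (GRCm38.p6, 250 bases before to 50 after the start) were found for 7 of the 9 genes, all except Insr and Slc2a4. The Irs1 window, chr1:82291390-82291689 on the minus strand, and the Irs2 window, chr8:11008880-11009179 on the minus strand, read as follows, with an E-box (CACGTG) and the insulin response element core (TGTTTTG) in capitals.
Irs1: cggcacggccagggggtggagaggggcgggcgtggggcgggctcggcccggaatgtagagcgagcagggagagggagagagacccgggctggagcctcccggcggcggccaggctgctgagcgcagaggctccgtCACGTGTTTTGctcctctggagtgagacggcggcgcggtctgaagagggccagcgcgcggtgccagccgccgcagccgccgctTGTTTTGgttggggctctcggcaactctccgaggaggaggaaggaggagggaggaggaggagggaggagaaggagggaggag
Irs2: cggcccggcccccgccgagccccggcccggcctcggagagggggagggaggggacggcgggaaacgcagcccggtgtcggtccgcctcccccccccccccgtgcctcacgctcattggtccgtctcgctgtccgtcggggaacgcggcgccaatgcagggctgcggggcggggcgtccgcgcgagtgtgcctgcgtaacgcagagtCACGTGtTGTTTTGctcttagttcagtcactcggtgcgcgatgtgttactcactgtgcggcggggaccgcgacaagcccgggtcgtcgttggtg
Both strands were searched for both motifs. The GC box (GGGCGG) and the CAAT box (CCAAT) were searched too. They occurred in 35.7% and 37.4% of all start windows, also in those of other members, and are not marked here. In Irs1 the E-box began at position -115 from the start and the core at positions -111 and -32, the first core sharing its leading bases with the E-box. In Irs2 the E-box began at -44 and the core at -37, with 1 base between them. Of 32851 RefSeq start windows of this length, 7.15% held CACGTG, 6.28% held TGTTTTG and 0.408% held both. The windows of the other 5 genes searched held neither CACGTG nor TGTTTTG. These matches describe letters in a window and do not show that a factor binds there.

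The comparison of mature adipocytes with preadipocytes on the high-fat diet asked how the insulin route differs between the lipid-filled cell and the cells it forms from. GLUT4 mRNA was 83.7-fold higher in the mature fraction, the inhibitor Grb14 5.21-fold and the kinase Akt2 3.71-fold, while the docking protein Irs2 was 2.88-fold lower. Insr and Tbc1d4 were slightly higher and Irs1 lower, but these 3 calls were lost under part of the other ways of analysing the counts. Pik3r1 and Foxo1 did not pass the test. Of the 9 genes 5 were called higher and 2 lower at an adjusted p below 0.05 in edgeR's quasi-likelihood test with Benjamini-Hochberg adjustment. This test called 59.8% of the 17948 genes tested, 26.9% higher and 32.9% lower, and the 7 calls among the 9 genes are to be read against that share. All 9 genes passed the filter on low counts. The median log2 fold change was 0.51 over the 9 genes and -0.22 over all genes tested.

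**Figure D1:**
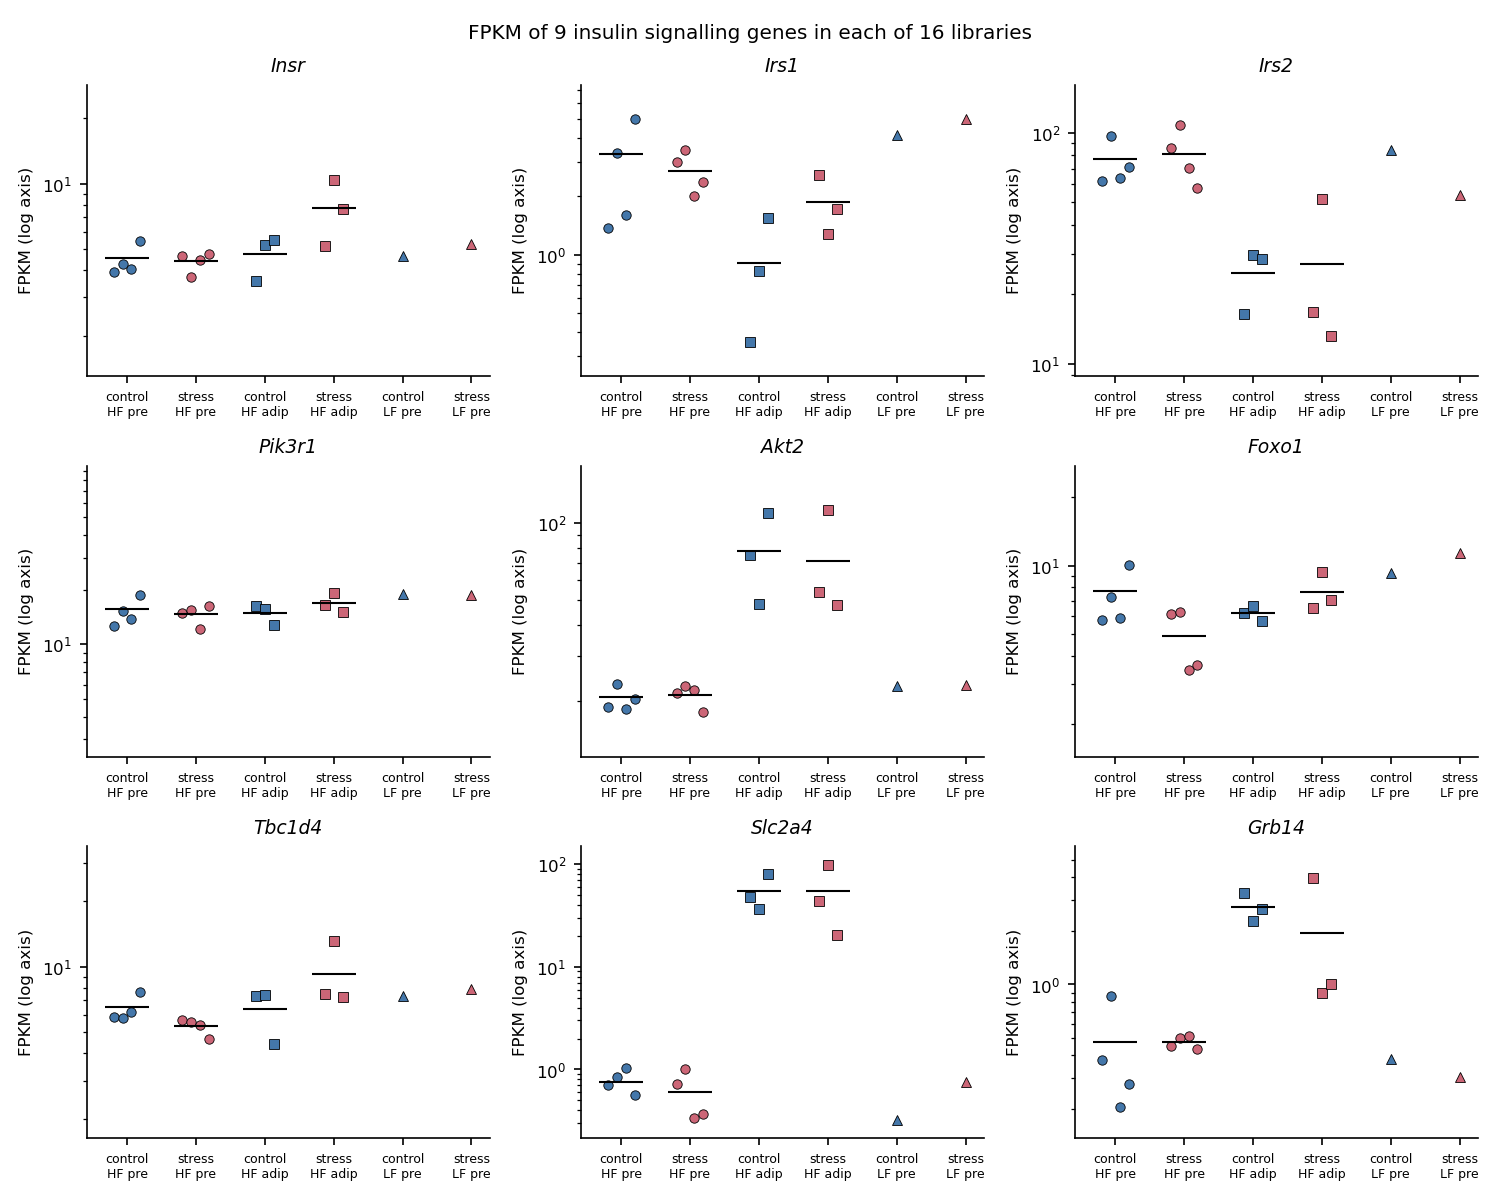
FPKM of each of the 9 genes (log axis) in all 16 libraries, grouped by early life treatment, diet (HF, high-fat; LF, low-fat) and fraction (pre, preadipocyte; adip, mature adipocyte); blue is control, red is stress, and the line is the group mean with the near-identical pair of control preadipocyte libraries averaged. By FPKM, mature adipocyte samples stand apart from high-fat preadipocytes for Irs2, Akt2, Slc2a4 and, by little, Grb14. They overlap with them for the other 5 genes.

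Insr (chromosome 8, 3122061 to 3279617, minus strand, GRCm38) encodes the receptor. Its level was 3.74 FPKM in the lowest, 4.44 in the median and 5.44 in the highest of the 7 preadipocyte samples. In the 6 mature adipocyte samples the lowest was 3.57, the median 5.36 and the highest 10.4 FPKM. The 2 ranges overlapped, and the 2 highest values, 10.4 and 7.66 FPKM, were both from stress adipocyte libraries. The log2 fold change was 0.56 ± 0.20 (SE; adjusted p = 0.0244, edgeR). The call was lost under 9 of 24 alternatives, among them DESeq2 (0.46, adjusted p = 0.0726) and the control libraries alone (0.10, adjusted p = 0.794).

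The receptor of the related growth factor IGF1 moved the other way. Igf1r was at 2.41 to 4.60 FPKM in preadipocytes and at 0.262 to 1.17 FPKM in mature adipocytes, without overlap, and fell by 1.99 on the log2 scale (SE 0.31, adjusted p = 7.15e-05, edgeR). Insr made up 48.2% to 66.4% of the summed FPKM of both receptors in preadipocytes and 83.7% to 93.2% in mature adipocytes. This share was computed after the values were seen and is given without a test.

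Irs1 (chromosome 1, 82233101 to 82291416, minus strand) and Irs2 (chromosome 8, 10984681 to 11008458, minus strand) encode the docking proteins whose start regions are printed above. Irs2 was the most abundant of the 9 genes in preadipocytes, with 57.8 FPKM in the lowest, 71.0 in the median and 108 in the highest sample. In mature adipocytes the lowest was 13.3, the median 22.6 and the highest 51.5 FPKM, and the highest adipocyte sample was below the lowest preadipocyte sample. Irs2 fell by 1.53 on the log2 scale (SE 0.29, adjusted p = 0.000427, edgeR), a call kept under all 24 alternatives run.

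Irs1 was the scarcer docking protein in both fractions. Its level ran from 1.49 over a median of 2.99 to 4.99 FPKM in preadipocytes, and from 0.356 over a median of 1.41 to 2.56 FPKM in mature adipocytes. The ranges overlapped, with the lowest 2 adipocyte values, 0.356 and 0.823 FPKM, in control adipocyte libraries 1 and 2. Irs1 fell by 1.03 (SE 0.39, adjusted p = 0.0322, edgeR), and the call was lost under 8 of 24 alternatives, including the stress libraries alone (-0.37, adjusted p = 0.298) and the removal of the 2 control adipocyte libraries that sampled rare genes less well (-0.76, adjusted p = 0.118). As a share of Irs1 plus Irs2, Irs1 was 3.63% ± 1.39 (SD, n = 7) in preadipocytes and 6.2% ± 4.94 (SD, n = 6) in mature adipocytes, which did not pass an exact two-sided permutation test (p = 0.263, the same after adjustment over 7 shares).

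Another docking protein took a large part of the family in the mature fraction. Irs3, which rodents express in fat, was at 0.368 to 1.12 FPKM in preadipocytes and 19.5 to 56.2 FPKM in mature adipocytes, 56.6-fold higher (log2 fold change 5.82 ± 0.32, SE, adjusted p = 8.54e-09, edgeR). Of the summed FPKM of Irs1, Irs2 and Irs3, Irs3 held 0.57% to 1.18% in preadipocytes and 39.1% to 72.3% in mature adipocytes. Irs2 held 92.3% to 97.1% and then 27.1% to 59.2%. Irs1 held 2.31% to 6.49% (median 3.32%) and then 0.587% to 5% (median 1.72%). These shares too were computed after the values were seen and carry no test.

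The adaptor list of 13 genes, which also holds the receptors, had 11 genes above the low-count filter, of which 3 rose and 4 fell, shares near the 26.9% and 32.9% of all genes. Besides Insr and Irs3, the adaptor Sh2b2 (APS), which binds the active receptor, rose by 2.23 ± 0.28 on the log2 scale (SE, adjusted p = 1.09e-05, edgeR). Irs1, Irs2, Igf1r and the adaptor Shc1 (-0.65) fell.

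Pik3r1 (chromosome 13, 101680563 to 101768217, minus strand) encodes the main regulatory subunit of the lipid kinase. It had the smallest difference between fractions of the 9 genes, with a level from 12.1 over a median of 15.2 to 18.7 FPKM in preadipocytes and from 12.8 over a median of 15.9 to 19.1 FPKM in mature adipocytes. The ranges were nearly the same, and the log2 fold change of 0.16 ± 0.15 (SE) did not pass (adjusted p = 0.351, edgeR). It was -0.026 in the control libraries alone. Pik3r1 made up 45.7% ± 4.10 (SD, n = 7) of the 3 regulatory subunit genes Pik3r1, Pik3r2 and Pik3r3 in preadipocytes and 50.4% ± 7.82 (SD, n = 6) in mature adipocytes (exact permutation p = 0.194, adjusted 0.226). This share passed only without control adipocyte library 3, where the difference was 7.77 percentage points (adjusted p = 0.00442, exact permutation test).

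Of the 11 PI3-kinase genes above the filter 1 rose and 2 fell, against 26.9% and 32.9% of all genes. The catalytic subunit Pik3cb rose by 2.10 ± 0.22 (SE, adjusted p = 1.4e-06, edgeR), from 1.62 to 4.73 FPKM in preadipocytes to 9.04 to 15 FPKM in mature adipocytes. Pik3ca, another catalytic subunit, fell by 0.34 and Pik3r4 by 0.49. Among 11 brakes on the lipid signal and on AKT, 2 rose and 3 fell, again no more than those shares. Pik3ip1, a membrane protein that inhibits the kinase, fell by 2.52 (SE 0.36, adjusted p = 3.44e-05), and the AKT phosphatases Phlpp1 and Phlpp2 fell by 1.2 each. The AKT-binding pseudokinase Trib3 rose by 1.60 and the lipid phosphatase Inppl1 by 0.46.

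Akt2 (chromosome 7, 27591552 to 27640826, plus strand) encodes the AKT form that serves glucose uptake in fat. It was the least variable of the 9 genes among preadipocytes, with 18.1 FPKM in the lowest, 21.5 in the median and 23.4 in the highest sample. In mature adipocytes the lowest was 47.9, the median 64.4 and the highest 112 FPKM. Each adipocyte sample was at least 47.9 FPKM and so above each preadipocyte sample. Akt2 rose by 1.89 ± 0.21 on the log2 scale (SE, adjusted p = 3.26e-06, edgeR) and passed under all 24 alternatives run. It had a higher log2 fold change than 90.6% of genes tested.

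Akt1, the widely expressed AKT gene, did not pass the test. It was at 41.1 to 50.6 FPKM in preadipocytes and 21.4 to 42.9 FPKM in mature adipocytes (-0.34 ± 0.17, SE, adjusted p = 0.0992, edgeR). Akt1 was thus above Akt2 in every high-fat preadipocyte sample, and Akt2, at 47.9 FPKM or more, was above Akt1 in every mature adipocyte sample.

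**Figure D2:**
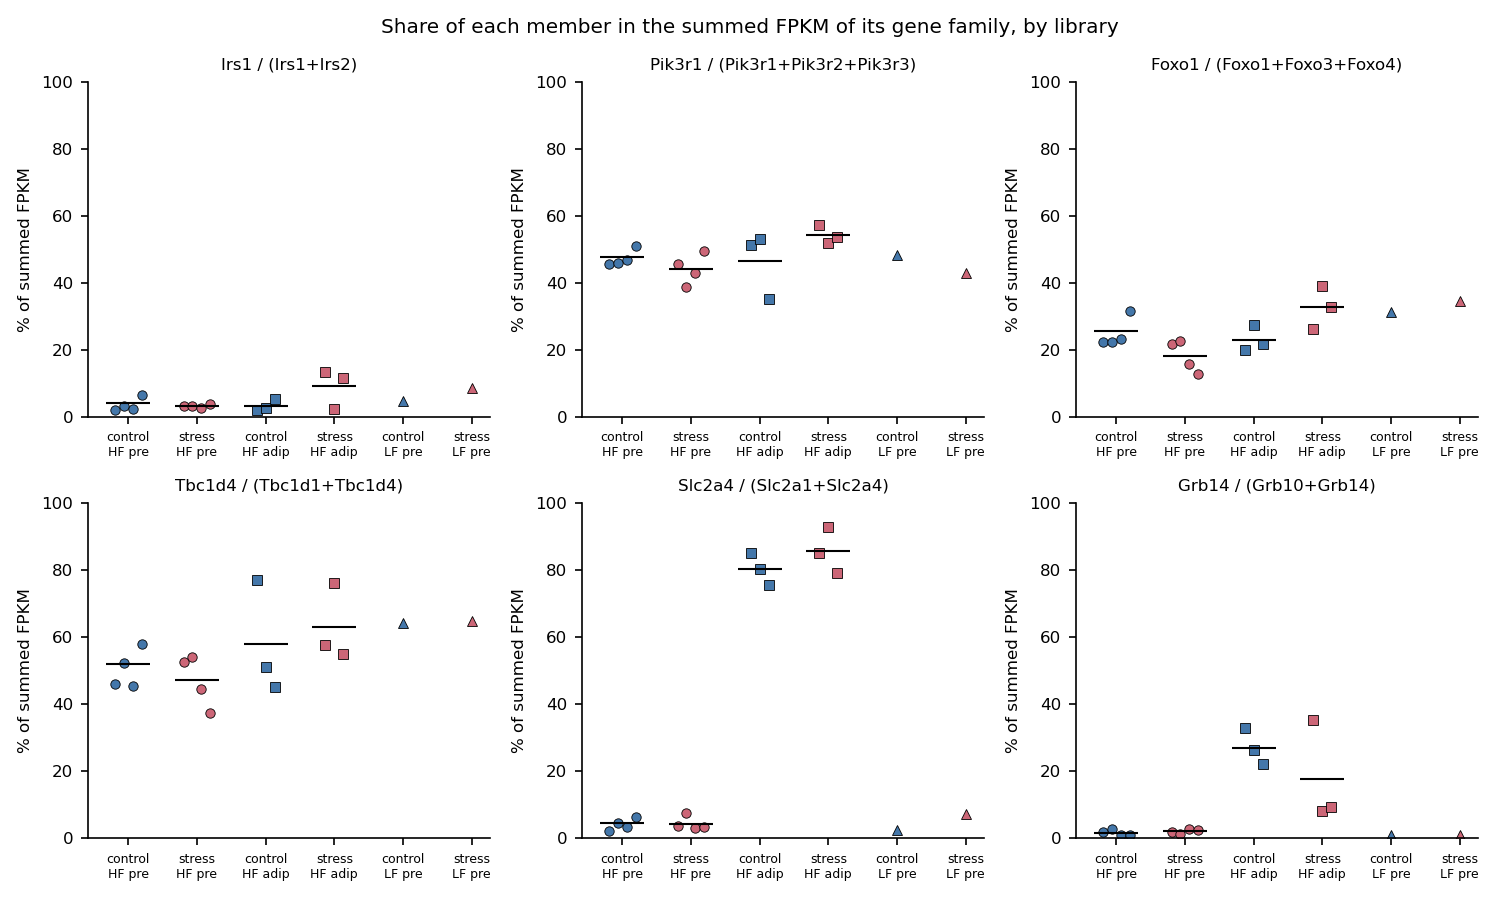
Share of 6 of the genes in the summed FPKM of their family (percent, axis from 0 to 100) in each library, coloured and grouped as in the plot of FPKM; the line is the group mean. Slc2a4 and Grb14 separate all 6 mature adipocyte samples from the preadipocytes; the other 4 shares overlap.

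The mTOR complex genes Mtor, Mlst8 and Deptor rose by 1.2, 1.49 and 1.58, whereas Rictor, the subunit that defines the complex phosphorylating AKT, fell by 1.51 (SE 0.30, adjusted p = 0.000529, edgeR). Downstream, 9 of 14 AKT substrates and mTORC1 genes rose and 0 fell, where 26.9% of all genes rose and 32.9% fell, with a median of 0.94 against -0.22 over all genes. The largest were the glycogen synthases Gys2 (7.23 ± 0.48, SE) and Gys1 (3.75 ± 0.27), followed by the translation repressor Eif4ebp1 (3.50 ± 0.30) and Pde3b (2.70 ± 0.28), the phosphodiesterase through which insulin restrains lipolysis. Gys2 was at 0.0454 to 0.261 FPKM in preadipocytes and 5.52 to 43.9 FPKM in mature adipocytes.

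Foxo1 (chromosome 3, 52268336 to 52353221, plus strand) encodes the transcription factor that AKT holds in the cytoplasm. Preadipocytes ran from 3.46 over a median of 6.09 to 10.01 FPKM and mature adipocytes from 5.67 over a median of 6.55 to 9.32 FPKM. The adipocyte range lay inside the preadipocyte range, and the log2 fold change of 0.29 ± 0.23 (SE) did not pass (adjusted p = 0.291, edgeR). In the control libraries alone it was -0.26 (adjusted p = 0.499) and in the stress libraries alone it was 0.82 (adjusted p = 0.025), where it passed. Without stress preadipocyte libraries 3 and 4 it was 0.029 (adjusted p = 0.911).

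The share of Foxo1 in Foxo1, Foxo3 and Foxo4 was 21.3% ± 6.05 (SD, n = 7) and 27.8% ± 7.11 (SD, n = 6), not separated by the exact permutation test (p = 0.102, adjusted 0.143). The family itself was rearranged around it: Foxo3 fell by 1.16 (SE 0.20, adjusted p = 0.000184, edgeR) and Foxo4 rose by 0.55 ± 0.19 (SE, adjusted p = 0.0187, edgeR). The Foxo4 ranges overlapped, at 6.29 to 12.1 FPKM in preadipocytes and 9.35 to 20.7 FPKM in mature adipocytes. Its highest adipocyte values, 20.68 and 15.35 FPKM, were in control adipocyte libraries 1 and 3, which sampled rare genes less well. Of 16 genes known as FOXO targets, 6 rose and 4 fell, against 26.9% and 32.9% of all genes, with a median of 0.049. The triglyceride lipase Pnpla2 (5.68 ± 0.30, SE), itself one of the mature adipocyte markers, the pyruvate dehydrogenase kinase Pdk4 (3.15 ± 0.35) and Eif4ebp1 rose most firmly. The cell cycle inhibitor Cdkn1b (-1.52), Irs2 and Bcl6 (-0.84) fell. Members of this list thus moved in both directions.

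Tbc1d4 (chromosome 14, 101442360 to 101609191, minus strand), also called AS160, encodes the protein that retains GLUT4 vesicles until AKT phosphorylates it. It was at 4.68 FPKM in the lowest, 5.67 in the median and 7.63 in the highest preadipocyte sample, and at 4.44, 7.37 and 13.1 FPKM in mature adipocytes. The ranges overlapped; the lowest and the highest value of all 14 high-fat libraries were both in the mature fraction, in control library 3 and stress library 2. The log2 fold change was 0.51 ± 0.21 (SE, adjusted p = 0.0461, edgeR), and it passed under only 5 of 24 alternatives (0.41, adjusted p = 0.126 in DESeq2; 0.037, adjusted p = 0.936 in the control libraries alone). Its share of Tbc1d1 plus Tbc1d4 was 49.2% ± 7.06 (SD, n = 7) against 60.4% ± 13.3 (SD, n = 6), with an exact permutation p = 0.0874 (adjusted 0.143). Without control adipocyte library 3 the difference was 14.2 percentage points and passed (adjusted p = 0.0424).

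Slc2a4 (chromosome 11, 69942539 to 69948188, minus strand) encodes GLUT4, the transporter that insulin moves to the surface of fat and muscle cells. Preadipocytes had 0.334 FPKM in the lowest, 0.724 in the median and 1.0 in the highest sample, which rest on 23 to 87 counts per library. Mature adipocytes had 20.3, 45.7 and 98.6 FPKM, on 1528 to 5350 counts. Each of the 6 adipocyte samples was far above every preadipocyte sample. Slc2a4 rose by 6.39 ± 0.40 on the log2 scale (SE, adjusted p = 2.22e-08, edgeR), rank 72 of 17948 genes by log2 fold change. It passed under all 24 alternatives run.

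Other fat cell transcripts were also found as traces in the preadipocytes. Per 1000 FPKM of the 15 mature adipocyte markers, Slc2a4 had 2.32 to 5.58 FPKM in the high-fat preadipocyte libraries and 1.41 to 3.99 FPKM in the mature adipocyte libraries, ranges that overlapped. Per 1000 FPKM of Adipoq alone it had 21 to 463 FPKM in preadipocytes and 9.54 to 37.1 FPKM in mature adipocytes, and 6 of the 8 preadipocyte libraries lay above every adipocyte library, so the 2 ratios differ. In bulk samples fewer cells of a type and less RNA per cell cannot be told apart. Markers of skeletal muscle, a tissue that also expresses GLUT4, Tbc1d4 and Akt2, were found in the mature fraction too. The source of these transcripts was not tested. Of the 12 muscle markers tested 9 were called higher in the mature fraction and 0 lower. The summed level of the list was 77.0 to 182 FPKM against 6.95 to 36.3 FPKM in preadipocytes. Acta1 led it in the mature fraction, at 23.9 to 126 FPKM. Myh4 was at 1.2 to 6.03 FPKM there, and Tnnc2 was listed at 0 in all 6 libraries. Endothelial markers were called higher there for 10 of 12 genes and lower for 1 (median 2.43; summed level 228 to 938 FPKM against 81.5 to 279), mural cell markers for 4 of 8 (164 to 472 FPKM against 20.3 to 112) and brown and beige fat markers for 5 of 7 (55.1 to 700 FPKM against 4.48 to 10). The part of these cell types in the values of the 9 genes and of the pathway genes was not tested.

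Slc2a4 replaced Slc2a1 as the main transporter of the pair. Slc2a1, the widely expressed transporter GLUT1, was at 8.34 to 31.5 FPKM in preadipocytes and 5.38 to 25.6 FPKM in mature adipocytes (-0.62 ± 0.32, SE, adjusted p = 0.112, edgeR). The share of Slc2a4 in both went from 4.44% ± 1.80 (SD, n = 7) to 83.0% ± 6.08 (SD, n = 6; exact permutation p = 0.000583, the smallest possible, adjusted 0.00136). Of the 11 glucose transporter genes 3 rose and 2 fell, the former near the 26.9% and the latter under the 32.9% of all genes. Slc2a8 (1.19) and Slc2a12 (1.36) rose with Slc2a4, and Slc2a3 (-2.12) and Slc2a10 (-1.63) fell.

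The machinery that stores and moves GLUT4 vesicles leaned the same way in part. Of the 34 genes found, 16 rose and 4 fell, Slc2a4 and Tbc1d4 included, where 26.9% of all genes rose and 32.9% fell, and the median was 0.32 against -0.22 over all genes. The caveolin Cav1 rose by 3.74 ± 0.24 (SE, adjusted p = 2.95e-08, edgeR), from 29.2 to 85.5 FPKM to 524 to 898 FPKM. Cav1 is abundant in endothelium as well as in fat cells, and the endothelial markers rose too. The sorting receptor Sort1 rose by 2.78 ± 0.26 (SE, adjusted p = 6.79e-07, edgeR). Lrp1, a cargo receptor of the same vesicles, fell by 2.00 (SE 0.36), the syntaxin partner Stxbp4 by 1.39 and the insulin-regulated aminopeptidase Lnpep by 0.93. Cargo of the GLUT4 vesicle thus did not move together.

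Grb14 (chromosome 2, 64912476 to 65024987, minus strand) encodes the inhibitor of the receptor kinase. It was at 0.276 FPKM in the lowest, 0.453 in the median and 0.861 in the highest preadipocyte sample, and at 0.892, 2.46 and 3.98 FPKM in mature adipocytes. By FPKM the lowest adipocyte value, in stress library 2, exceeded the highest preadipocyte value, in control library 2, by little. By counts scaled to the library total the order of these libraries was reversed (5.19 against 6.06 CPM), so the fractions overlapped on that scale. Counts were low, 36 to 129 per preadipocyte library and 100 to 637 per adipocyte library. Grb14 rose by 2.38 ± 0.38 (SE, adjusted p = 9.59e-05, edgeR), more than 93.7% of genes tested, and passed under all 24 alternatives run.

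Its close relative Grb10 went the other way, from 16.5 to 36.1 FPKM in preadipocytes to 6.39 to 10.1 FPKM in mature adipocytes (fell by 1.53, SE 0.21, adjusted p = 2.83e-05, edgeR). Grb10 still exceeded Grb14 in all 14 high-fat libraries. The share of Grb14 in both was 1.94% ± 0.760 (SD, n = 7) in preadipocytes and 22.4% ± 11.5 (SD, n = 6) in mature adipocytes (exact permutation p = 0.000583, adjusted 0.00136). Of the 11 receptor-level inhibitors, Grb14 was the 1 that rose, and 4 fell, the latter near the 32.9% of all genes that fell, with a median of -0.67. Besides Grb10 these were Enpp1 (-1.66), an ectoenzyme that inhibits the receptor, Socs3 (-1.32), which blocks the docking proteins, and the phosphatase Ptpn2 (-1.21).

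**Figure D3:**
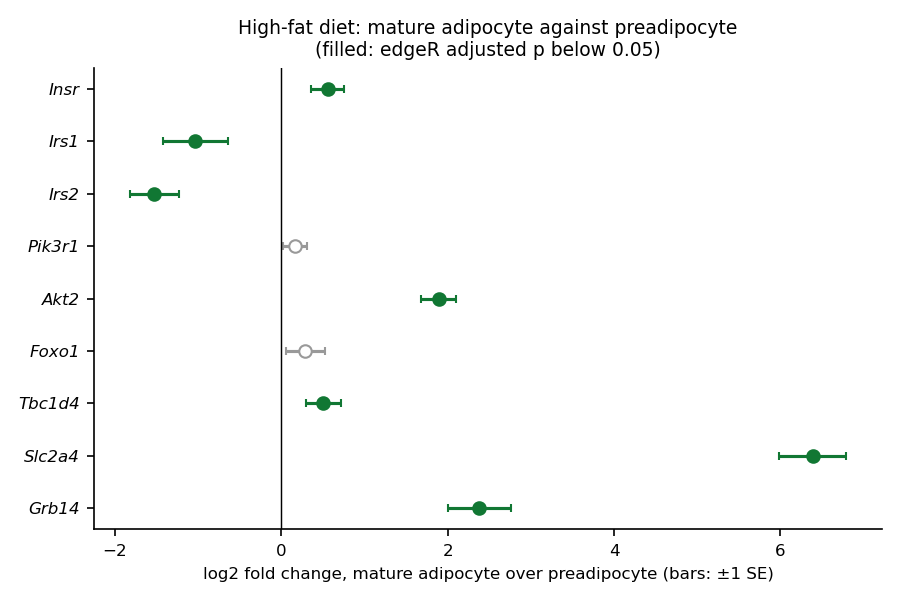
Log2 fold change of the 9 genes, mature adipocyte over preadipocyte on the high-fat diet, with bars of 1 SE; filled points passed an adjusted p of 0.05 in edgeR. Slc2a4 at 6.39 lies far to the right, Irs1 and Irs2 are the 2 genes to the left of 0, and Pik3r1 and Foxo1 are open.

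**Figure D4:**
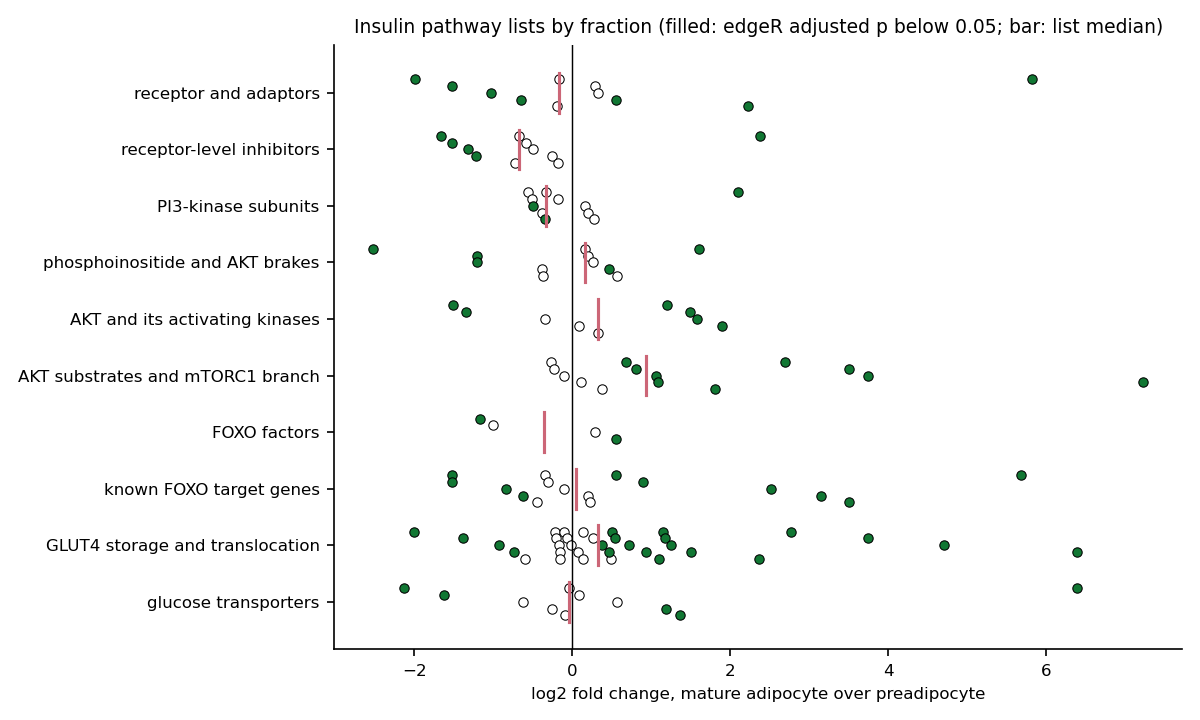
Log2 fold change, mature adipocyte over preadipocyte, of each tested gene in 10 lists of the insulin route; filled points passed an adjusted p of 0.05 in edgeR and the red bar is the list median. The receptor-level inhibitors lie mostly to the left with Grb14 alone far to the right, and the AKT substrates and mTORC1 genes lie mostly to the right.

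By level per gene length, the order within preadipocytes was Irs2 (79.0 ± 18.5 FPKM, SD, n = 7), Akt2 (21 ± 2.03), Pik3r1 (15.1 ± 2.12), Foxo1 (6.07 ± 2.23), Tbc1d4 (5.83 ± 0.901), Insr (4.47 ± 0.552), Irs1 (2.95 ± 1.15), Slc2a4 (0.671 ± 0.257) and Grb14 (0.475 ± 0.194). The intervals of mean ± SD overlapped from each neighbour to the next between Foxo1 and Irs1, and between Slc2a4 and Grb14. In mature adipocytes Akt2 (74.5 ± 30.1 FPKM, SD, n = 6) came first, before Slc2a4 (54.2 ± 29.1), Irs2 (25.9 ± 14.2), Pik3r1 (15.9 ± 2.07), Tbc1d4 (7.83 ± 2.82), Foxo1 (6.88 ± 1.28), Insr (6.26 ± 2.42), Grb14 (2.34 ± 1.22) and Irs1 (1.38 ± 0.762). The same intervals of the first 4 overlapped from each neighbour to the next, as did those of Tbc1d4, Foxo1 and Insr, and Grb14 and Irs1. Irs1 was thus above both Slc2a4 and Grb14 in preadipocytes and last in mature adipocytes.

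The coefficient of variation of FPKM among samples was higher in mature adipocytes than in preadipocytes for 7 of the 9 genes, a description without a test. It was 55.2% against 39% for Irs1, 53.6% against 38.2% for Slc2a4 and 52.3% against 40.9% for Grb14. Foxo1 (18.5% against 36.7%) and Pik3r1 (13% against 14%) were the 2 exceptions. By FPKM, stress adipocyte library 2 held the highest adipocyte value for 7 of the 9 genes, all except Irs1 and Grb14. By counts scaled to the library total it held 4 of them, Irs2, Slc2a4, Akt2 and Tbc1d4, while Insr and Foxo1 were highest in stress library 3 and Pik3r1 in stress library 1. It held the lowest Grb14 value on both scales.

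Over all 15 samples, the pattern of Slc2a4 was most like that of Ces1f, a carboxylesterase (Pearson correlation of log2 CPM 0.996), Lipe, the hormone-sensitive lipase (0.995), and Pcx, the pyruvate carboxylase that feeds lipid synthesis (0.992), among 9680 genes with a mean of at least 10 CPM (counts scaled to library size). The genes most like Irs1 were Asah2 (0.947), Rfx5 (0.946) and Ppp6r2 (0.918). For Grb14 they were C1rl (0.945), Lrpap1 (0.943) and Mfge8 (0.941), and for Foxo1 Prkaa2 (0.848), Pde4dip (0.843) and Mtmr4 (0.842). The 15 points share the split between fractions, so genes with a large difference between fractions score high by that alone.

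Early life stress was compared with control within each fraction on the high-fat diet. None of the 9 genes passed, and neither did any other gene: edgeR called 0 of 17129 (0%) in preadipocytes and 0 of 14485 (0%) in mature adipocytes. Genes with an unadjusted p below 0.05 numbered 496 and 417, and DESeq2 called 5 and 16 genes, none of them among the 9. The test of a stress effect differing between fractions also called 0 of 17948 (0%). Here 873 had an unadjusted p below 0.05, and DESeq2 called 4. Values for the 9 genes are given here as measured, without a claim of change.

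**Figure D5:**
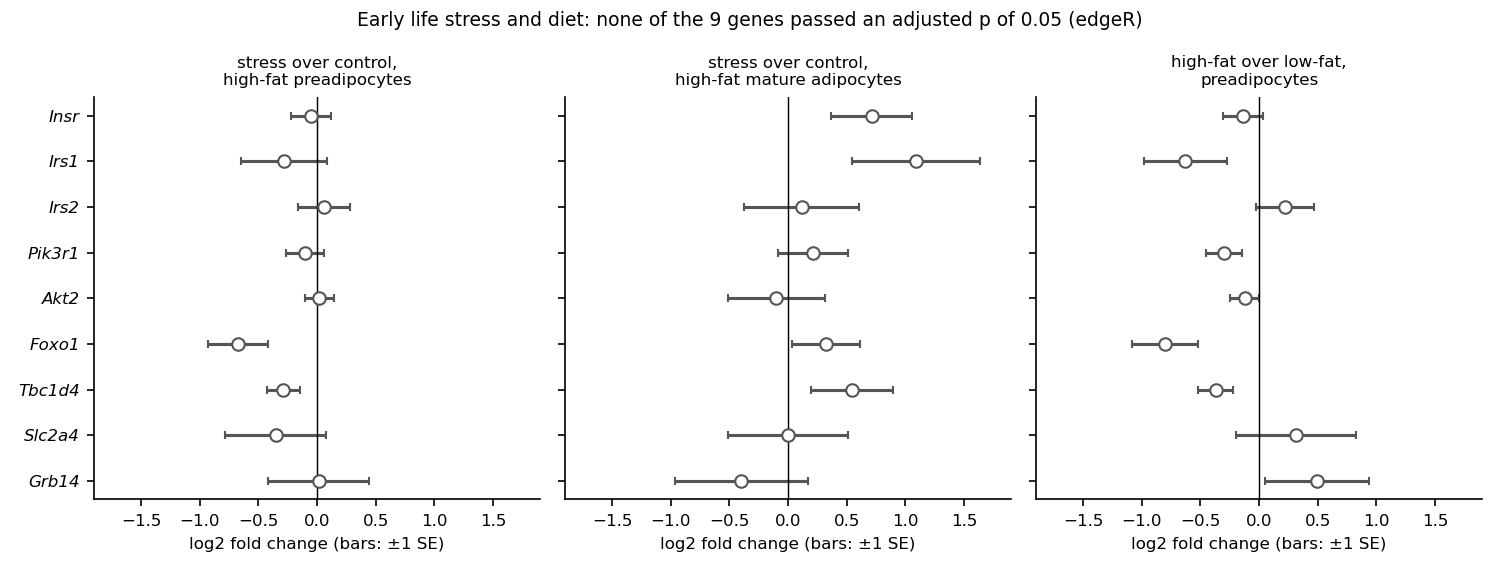
Log2 fold changes of the 9 genes with bars of 1 SE for stress over control in high-fat preadipocytes, stress over control in high-fat mature adipocytes, and high-fat over low-fat diet in preadipocytes. All points are open because none passed an adjusted p of 0.05 in edgeR; the lowest are Foxo1 in the left and right panels (-0.68 and -0.80) and the highest is Irs1 in the middle (1.09).

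In preadipocytes Foxo1 had the largest difference. The 4 control libraries read 5.76, 7.25, 5.87 and 10.01 FPKM and the 4 stress libraries 6.09, 6.23, 3.46 and 3.64 FPKM. By FPKM stress libraries 3 and 4 lay below every control library. Stress libraries 1 and 2 lay inside the control range, so the groups overlapped on this scale. By counts scaled to the library total they did not overlap. On that scale the stress libraries ran from 31.5 to 56.1 CPM and the control libraries from 57.8 to 92.7 CPM. The log2 fold change was -0.68 ± 0.26 (SE, unadjusted p = 0.0299, adjusted p = 0.973, edgeR). Stress libraries 3 and 4 also had the highest summed macrophage markers, 3690.1 and 4472 FPKM against 866 to 2472.5 in the other high-fat preadipocyte libraries. Without them the Foxo1 difference was -0.38 (unadjusted p = 0.157). They were also the lowest in Slc2a4, at 0.334 and 0.365 FPKM against 0.570 to 1.02 in the others, and in summed mature adipocyte markers, at 94.5 and 71.6 FPKM against 173 to 312.

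Tbc1d4 was at 5.89, 5.82, 6.21 and 7.63 FPKM in the control and 5.67, 5.56, 5.42 and 4.68 FPKM in the stress preadipocyte libraries. By FPKM all 4 stress values were below all control values, though by little. By counts scaled to the library total the groups overlapped, with stress library 1 (46.3 CPM) above control library 2 (43.8 CPM). The log2 fold change of -0.29 ± 0.14 (SE) did not pass (unadjusted p = 0.0725, adjusted p = 0.973, edgeR). The other 7 genes were closer to 0 or less precise: Slc2a4 -0.35 ± 0.43, Irs1 -0.28 ± 0.36, Pik3r1 -0.10 ± 0.16, Insr -0.053 ± 0.17, Irs2 0.055 ± 0.22, Akt2 0.019 ± 0.13 and Grb14 0.013 ± 0.43. For Akt2, 2 SE on either side reach from -0.23 to 0.27, and for Slc2a4 from -1.21 to 0.50.

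Over the marker lists, endothelial markers were lower in stress preadipocytes for 12 of 12 genes by sign (median -1.16) and macrophage markers higher for 11 of 12 (median 0.78), with 0 called. Their part in the values above was not tested. Among the pathway genes the smallest unadjusted p in each direction was that of Sesn3, a FOXO target, for a lower value (-0.71 ± 0.21, SE, unadjusted p = 0.00915, adjusted p = 0.973, edgeR), and of Ahsg, a liver-made inhibitor of the receptor, for a higher one (1.96 ± 0.81, unadjusted p = 0.0426), which was at 0.349 to 3.69 FPKM.

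In mature adipocytes the largest stress differences were those of Irs1 and Insr. Irs1 read 0.356, 0.823 and 1.55 FPKM in the control and 2.56, 1.28 and 1.72 FPKM in the stress libraries. Only control library 3 reached into the stress range. The log2 fold change was 1.09 ± 0.54 (SE, unadjusted p = 0.0726, adjusted p = 1, edgeR), and leaving out single libraries moved it between 0.70 and 1.66. Insr read 3.57, 5.24 and 5.48 FPKM in control and 5.16, 10.4 and 7.66 FPKM in stress libraries, with stress library 1 inside the control range (0.71 ± 0.35, SE, unadjusted p = 0.0665, adjusted p = 1).

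Slc2a4 read 48.1, 36.1 and 79.1 FPKM in control and 43.3, 98.6 and 20.3 FPKM in stress adipocytes. The stress group held both the highest and the lowest of the 6 values. The log2 fold change was 0.00035 ± 0.51 (SE, adjusted p = 1, edgeR), with 2 SE reaching from -1.02 to 1.02, so that even a 2-fold difference in either direction lies at the edge of this interval. Without stress library 2 it was -0.66 and without stress library 3 it was 0.40. Akt2 behaved alike, at 75.3, 48.0 and 110.1 FPKM against 53.5, 112 and 47.9 FPKM (-0.10 ± 0.41). The remaining genes were Tbc1d4 (0.55 ± 0.35, SE), Foxo1 (0.32 ± 0.29), Pik3r1 (0.21 ± 0.30), Irs2 (0.11 ± 0.49) and Grb14 (-0.40 ± 0.57).

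Beside these values, the brown and beige fat markers summed to 55.1 to 152 FPKM in the control and 273 to 700 FPKM in the stress adipocyte libraries, higher for 7 of 7 genes by sign (median 1.79), each at an unadjusted p below 0.05. Skeletal muscle markers were lower in stress adipocytes for 11 of 12 genes by sign (median -1.23), 5 of them at an unadjusted p below 0.05, although their summed level, led by Acta1, was 77.0 to 182 FPKM in control and 107 to 137 FPKM in stress libraries. Macrophage markers were lower for 11 of 12 (median -0.41). None of these markers was called by edgeR, and the part of these cells in the values of the 9 genes was not tested. Among the pathway genes, the AKT-binding pseudokinase Trib2 had the smallest p for a higher value (2.31 ± 0.65, SE, unadjusted p = 0.0049, adjusted p = 1, edgeR) and the FOXO target Cited2 for a lower one (-0.85 ± 0.34, unadjusted p = 0.0308).

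The difference of the stress effect between fractions was tested as an interaction. It was 1.02 ± 0.39 for Foxo1 (SE, unadjusted p = 0.0208), 0.87 ± 0.36 for Tbc1d4 (unadjusted p = 0.0304) and 0.81 ± 0.35 for Insr (unadjusted p = 0.0366), in each case with an adjusted p of 0.934 in edgeR. For all 3 the sign was positive, that is, stress over control was higher in mature adipocytes than in preadipocytes. Irs1 had the largest estimate, 1.40 ± 0.69 (unadjusted p = 0.0619, edgeR). Slc2a4 was at 0.36 ± 0.70, Pik3r1 at 0.35 ± 0.29, Irs2 at 0.077 ± 0.59, Akt2 at -0.089 ± 0.43 and Grb14 at -0.37 ± 0.77. Of the pathway genes Trib2 (3.04 ± 0.72, unadjusted p = 0.000856, adjusted p = 0.934) and the lipid phosphatase Inpp5k (-0.74 ± 0.30, unadjusted p = 0.0279) had the smallest unadjusted p in each direction. The Foxo1 share of the FOXO family was 14.5 percentage points higher in mature adipocytes than in preadipocytes among stress libraries and differed by -2.53 points among control libraries, a contrast that was not tested.

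High-fat and low-fat diet were compared in preadipocytes, with only 1 control and 1 stress library on the low-fat side. edgeR called 0 of 19998 (0%), although 2456 (12.3%) had an unadjusted p below 0.05, and DESeq2 called 325, none of them among the 9 genes. Foxo1 was at 9.26 FPKM in the control and 11.3 FPKM in the stress low-fat library. Of the 8 high-fat libraries only control library 4, at 10.01 FPKM, reached this range. The log2 fold change, high-fat over low-fat, was -0.80 ± 0.28 (SE, unadjusted p = 0.0191, adjusted p = 0.353, edgeR). Leaving out single libraries moved it between -1.23 and -0.26, the latter without the low-fat stress library.

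Tbc1d4 was at 7.36 and 7.88 FPKM on the low-fat and 4.68 to 7.63 FPKM on the high-fat diet, where again control library 4 alone reached the low-fat range (-0.37 ± 0.15, SE, unadjusted p = 0.0322, adjusted p = 0.377). Pik3r1 was at 18.8 and 18.7 FPKM on the low-fat diet. By FPKM this was above all 8 high-fat libraries, of which control library 4 was close at 18.68 FPKM (-0.30 ± 0.15, unadjusted p = 0.0837, edgeR). By counts scaled to the library total, control library 4, at 201 CPM, lay between the low-fat libraries, at 197 and 207 CPM. The others were Irs1 (-0.63 ± 0.35, SE), Grb14 (0.49 ± 0.44), Slc2a4 (0.31 ± 0.51), Irs2 (0.22 ± 0.25), Insr (-0.14 ± 0.17) and Akt2 (-0.12 ± 0.12). Macrophage markers summed to 811 and 997 FPKM in the low-fat and 866 to 4472 FPKM in the high-fat preadipocyte libraries, higher for 11 of 12 genes by sign on the high-fat diet (median 1.45). Mature adipocyte markers were higher for 13 of 15 (median 0.63; 71.6 to 312 FPKM summed against 88.8 and 131) and endothelial markers lower for 12 of 12 (median -0.71; 81.5 to 279 FPKM against 132 and 235). edgeR called 0 of these markers, 6 macrophage, 6 mature adipocyte and 1 endothelial gene had an unadjusted p below 0.05, and the part of these cells in the values above was not tested. Among the pathway genes Txnip, an inhibitor of glucose uptake and a FOXO target, was lowest by p on the high-fat diet (-0.95 ± 0.16, SE, unadjusted p = 0.000168, adjusted p = 0.332, edgeR), and Sh2b2 was the highest (0.996 ± 0.29, unadjusted p = 0.00671).

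Within the low-fat diet, 1 stress library was set against 1 control library, with no replicate check and no test. Irs2 had 550 CPM in the control library (12854 counts, 95% exact Poisson interval 12632.7 to 13078.2) and 371 CPM in the stress library (7051 counts, 6887.4 to 7217.5), a log2 ratio of -0.57 with a prior count of 2. Among 9768 genes that reached 10 CPM in 1 of these libraries or both, 5% had a ratio below -0.393. The intervals cover counting error only. Slc2a4 had 27 counts (17.8 to 39.3) in the control and 55 (41.4 to 71.6) in the stress library, a log2 ratio of 1.26 on levels of 1.16 and 2.90 CPM. The other 7 genes had log2 ratios between -0.24 (Grb14) and 0.37 (Foxo1), inside the range from -0.393 to 0.611 that left out 5% of genes on either side. Grb14, at 2.82 and 2.37 CPM, and Slc2a4 were below the 10 CPM needed to count among the genes that gave this range. Over all 9768 genes 2.5% differed more than 2-fold.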

How the data were processed

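The authors deposited raw read counts and FPKM values per gene for each library. Per the submitters' processing notes, the tools were STAR 2.6.1d, edgeR 3.24.3 and DESeq2 1.20.0 and the build GRCm38 (mm10). Which program counted reads, and with which strand setting, is not given in the sources used here, so reads of paralogs or overlapping genes may be shared, although no gene overlapping one of the 9 loci had more than 32 counts. Dividing the counts by gene length and by library total gave the deposited FPKM up to a constant for each library (0.859 to 1.26).

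The 9 genes, the pathway lists and the marker lists were chosen with earlier results of these data known. The test on the counts was run in R 4.3.3 with edgeR 4.0.16 (filterByExpr, TMM factors, robust quasi-likelihood F test, Benjamini-Hochberg adjustment over all genes tested, threshold 0.05), with the near-identical pair summed into 1 library. The SE is the log2 fold change over the root of F. Fits used 13 high-fat libraries for fractions (early life treatment as a covariate) and for the interaction, 7 and 6 for stress, and 9 for diet. Shares of summed FPKM were compared with exact two-sided permutation tests.

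Pathway genes were named as the 3 with the smallest adjusted p per list and direction. Socs3, Mtor, Pde3b and Sort1 were named after their values were seen. Some genes of the lists, and 1 of the 7 shares tested, are not reported here. Alternatives were DESeq2 1.42.0 and its size factors, no filter, limma 3.58.1 on log2(FPKM + 0.1) and log2(FPKM + 1), the pair as 2 libraries, a replicate block, subsets of libraries and each library left out. The scripts were tested on simulated data.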

Additional observations from a re-analysis of the deposited data

Results flagged for a closer look

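Among stress high-fat preadipocyte libraries, the share of Slc2a4 in Slc2a1 plus Slc2a4 was 7.43% in library 2 and 3.18% to 3.67% in the other 3, so that library stood apart from its group. It was 1 of 16 groups of values tested in this way, and chance alone flags about 1 in 20. Slc2a4 itself was at 1.0 FPKM in that library and at 0.334 to 0.724 FPKM in the other 3.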

How the results depend on the processing

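Slc2a4, Akt2, Irs2 and Grb14 kept their direction and their call between fractions under all 24 alternatives run. Insr lost its call under 9, Irs1 under 8 and Tbc1d4 under 19 of the 24. The count of called genes fell from 10740 to 5998 with the control libraries only. Leaving out single libraries left 4 to 7 of the 9 genes called, the 4 being reached without stress preadipocyte library 2 and without stress adipocyte library 2. With DESeq2's size factors the median log2 fold change of all genes moved from -0.223 to -0.323.

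In the control libraries only, Pik3r1 was at -0.026 and Foxo1 at -0.26 between fractions, and the Foxo1 share differed by -2.53 percentage points there and by 14.5 in the stress libraries only. Leaving out single libraries moved the Pik3r1 share difference between 3.31 and 7.77 points and that of Tbc1d4 between 7.82 and 14.2, each passing without control adipocyte library 3.

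Counts of called genes that moved from 0 were 5 (stress in preadipocytes, DESeq2), 1 (the same with the replicate block and the pair as 2 libraries), 51 (stress in adipocytes, no filter), 16 (DESeq2), 0 to 9 (single libraries left out, 9 without control adipocyte library 2), 4 (interaction, DESeq2), and for diet 1 without a filter, 325 in DESeq2, 1 in limma with 0.1 added and 0 to 1 with single libraries left out (1 without control preadipocyte library 4). None of the 9 genes was among the calls for stress, interaction or diet under any alternative run.

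Signs turned for estimates near 0. For stress in preadipocytes, single libraries left out gave Insr -0.12 to 0.088, Irs1 -0.62 to 0.16, Irs2 -0.097 to 0.24, Akt2 -0.032 to 0.088, Pik3r1 -0.20 to 0.040 and Grb14 -0.26 to 0.72. Without the 2 macrophage-high libraries Slc2a4 was 0.11 and Grb14 -0.047. For stress in adipocytes, single libraries left out gave Irs2 -0.64 to 0.44, Slc2a4 -0.66 to 0.40 and Akt2 -0.51 to 0.22. Irs2 was -0.087 and -0.077 in limma (0.1 and 1 added) and -0.21 without control adipocyte libraries 1 and 3. Slc2a4 was -0.013 with DESeq2's size factors, -0.0069 in DESeq2, and -0.22 and -0.21 in limma. Akt2 was 0.49 without control adipocyte libraries 1 and 3 and 0.0036 with all libraries in 1 fit. For the interaction, single libraries left out gave Irs2 -0.67 to 0.40, Slc2a4 -0.30 to 0.75, Akt2 -0.49 to 0.24 and Grb14 -1.46 to 0.0020. Irs2 was -0.14 and -0.13 in limma, -0.23 without control adipocyte libraries 1 and 3 and -0.20 without the macrophage-high pair. Slc2a4 was -0.065 in limma with 1 added and -0.15 without the macrophage-high pair, and Akt2 was 0.52 without control adipocyte libraries 1 and 3. For diet, single libraries left out gave Irs2 -0.12 to 0.58 and Slc2a4 -0.34 to 1.25. The cause was not tested.

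Same-numbered libraries did not deviate together in every pair (correlations from -0.475 to 0.552). With so few libraries a group, these correlations cannot show whether a shared number means a shared animal. The main fits treated the libraries as unpaired. With the replicate block and the pair as 2 libraries 10063 genes were called between fractions, and Tbc1d4 lost its call (0.47, adjusted p = 0.0905, edgeR). Irs1 turned to 0.066 for stress in preadipocytes, Irs2 to -0.045 and Slc2a4 to -0.17 for stress in adipocytes, and Irs2 to -0.28 for the interaction.

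With 3 to 4 samples a group and 1 library per low-fat group, differences of the size of the SEs given could not be resolved. Slc2a4 and Grb14 rest on fewer than 130 counts in each preadipocyte library.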
